A study of Mus musculus with 40 samples.

Results

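The serpins measured here are the mouse genes named Serpin followed by a clade letter from a to i and a number, without Serpinh1, that had at least 10 counts in at least 3 of the 38 liver libraries used. Of 62 gene symbols of this form in the table of 55487 genes, 33 met that rule and all 33 entered the tests. Clade A gave 19 of them, clade B gave 6, clades E and F gave 2 each, and clades C, D, G and I gave 1 each. The nearest to the limit were Serpinb10, with 10 counts in 5 libraries, and Serpina3c, with 8 such libraries, while Serpinb2 and Serpinb5 reached 10 counts in 1 library each and were left out with 27 symbols that reached it in none.

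RNA was taken from whole livers of adult female mice of the strain labelled C57BL/6JBomTac, and each library came from 1 mouse. Hepatocyte-specific Nampt knockout mice (HNKO) carried floxed Nampt alleles and Cre recombinase driven by the albumin promoter, and their littermates with the floxed alleles alone were the wild-type (WT) group. All mice ate a purified control diet for 3, 6, 12 or 21 days. WT and HNKO libraries numbered 5 and 5 at day 3, 4 and 5 at day 6, 5 and 6 at day 12, and 5 and 3 at day 21, after 2 HNKO day 21 libraries described as failing quality control were set aside. The albumin promoter is used to direct Cre to hepatocytes, Nampt was not measured here by cell type, and in whole liver fewer cells of a type and less RNA per cell cannot be told apart. Libraries are named below by the number in their label.

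Serpins are a family of protease inhibitors that share a fold with an exposed reactive centre loop. A protease cleaves the loop as if it were a substrate, the serpin then changes shape, and the protease stays trapped in a covalent complex. Hepatocytes secrete many clade A, C, D, F and G serpins into plasma, where they restrain neutrophil elastase, clotting factors, plasmin and complement proteases, while clade B serpins mostly stay inside cells and a few family members, such as the hormone carriers Serpina6 and Serpina7, inhibit no protease.

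Library totals ran from 16151037 to 64181492 counts, with a median of 26466478.5. Nampt, the targeted gene, was below every WT library of its day in 5 of 5, 4 of 5, 6 of 6 and 3 of 3 HNKO libraries at days 3, 6, 12 and 21, and its log2 difference between HNKO and WT averaged over days was -0.83 (SE 0.12, edgeR adjusted p = 2.6e-06). Levels below are CPM, the usual counts scaled to a common depth, on library sizes scaled by the trimmed mean of M-values. A member is called where edgeR's quasi-likelihood test gave an adjusted p under 0.05 over all 20297 genes tested, and SE is the standard error of a log2 fold change.

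The clade A genes other than Serpina7, which is on the X chromosome, lie side by side on chromosome 12, between positions 103614786 and 104414329 of the GRCm38 build. The promoters of 5 of them are shown because Serpina1b and Serpina1d moved in one direction and their near neighbour Serpina1e in the other, and because Serpina3i and Serpina3n were both called higher at day 6. Each RefSeq window (GRCm38.p6) runs from 250 bases before the annotated start to 50 bases from it on, 5′ to 3′ on the gene's strand. Capitals mark a match, on either strand, to TGANTCA (AP-1), TTGCNNAA (C/EBP) or TTCNNNGAA (STAT). Serpina1b lies at chr12:103738140-103738439 (minus strand), Serpina1d at chr12:103773584-103773883 (minus), Serpina1e at chr12:103956848-103957147 (minus), Serpina3i at chr12:104262872-104263171 (plus) and Serpina3n at chr12:104406458-104406757 (plus).
Serpina1b: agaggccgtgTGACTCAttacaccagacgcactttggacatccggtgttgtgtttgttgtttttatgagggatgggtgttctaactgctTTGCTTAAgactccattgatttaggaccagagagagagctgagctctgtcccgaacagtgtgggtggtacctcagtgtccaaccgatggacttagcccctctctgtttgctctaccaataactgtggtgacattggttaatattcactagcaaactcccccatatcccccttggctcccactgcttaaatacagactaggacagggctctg
Serpina1d: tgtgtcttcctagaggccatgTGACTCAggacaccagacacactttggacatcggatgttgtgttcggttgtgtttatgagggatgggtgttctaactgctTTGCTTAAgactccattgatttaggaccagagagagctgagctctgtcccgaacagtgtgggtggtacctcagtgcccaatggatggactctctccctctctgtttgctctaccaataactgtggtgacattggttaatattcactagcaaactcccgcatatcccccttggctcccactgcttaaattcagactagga
Serpina1e: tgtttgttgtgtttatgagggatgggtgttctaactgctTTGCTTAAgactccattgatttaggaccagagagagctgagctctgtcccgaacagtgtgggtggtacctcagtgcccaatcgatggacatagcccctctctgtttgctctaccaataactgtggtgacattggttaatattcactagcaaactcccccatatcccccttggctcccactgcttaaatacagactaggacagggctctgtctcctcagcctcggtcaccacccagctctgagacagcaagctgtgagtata
Serpina3i: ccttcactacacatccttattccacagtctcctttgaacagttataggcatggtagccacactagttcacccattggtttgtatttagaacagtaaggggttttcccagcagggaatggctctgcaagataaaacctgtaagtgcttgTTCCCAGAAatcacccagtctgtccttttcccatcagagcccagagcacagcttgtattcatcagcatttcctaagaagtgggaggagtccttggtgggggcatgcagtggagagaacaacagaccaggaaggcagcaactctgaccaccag
Serpina3n: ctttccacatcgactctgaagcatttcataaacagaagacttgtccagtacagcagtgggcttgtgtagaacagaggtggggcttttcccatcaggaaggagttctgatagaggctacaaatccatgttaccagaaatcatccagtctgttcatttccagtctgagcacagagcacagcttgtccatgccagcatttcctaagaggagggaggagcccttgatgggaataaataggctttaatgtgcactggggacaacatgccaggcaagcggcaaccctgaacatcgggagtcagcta

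The Serpina1e window matched that of Serpina1d at an offset of 62 bases, with 226 of 238 overlapping bases identical (95.0%). The AP-1 letters of Serpina1d stand at -229 from its start, which falls outside the Serpina1e window, while the C/EBP letters lie inside all 3 Serpina1 windows shown, at -161 in Serpina1b, -149 in Serpina1d and -211 in Serpina1e. The STAT letters of Serpina3i stand at -102, and the Serpina3n window held none of the motifs searched. The STAT letters were also in windows of Serpina3f and Serpina3g, and the AP-1 letters in those of Serpina1a and Serpina1c, none of which was called between genotypes. Serpina11 and Serpinb6a, called higher in the mean over days, held the STAT letters too. The AP-1 letters were also in windows of Serpinb8, called lower in that mean, and Serpinb10, not called. The table gave 28 windows for 24 members, since some members have more than 1 annotated start. The STAT letters were in 7 of the 28 windows, the AP-1 letters in 6 and the C/EBP letters in 10, beside 8.3%, 7.81% and 10.8% of all 32851 windows of this length. By gene these were 5, 6 and 8 of the 24 members, since windows of 1 gene can overlap and hold the same site, and 4 of the 6 AP-1 windows belong to the Serpina1 paralogs. None of the 28 held GGGANNTCC (NF-kB, 4.3% of all windows) or CAAAGTCCA (HNF4, 0.475%). Serpina10, Serpina3h, Serpina3k, Serpina3m, Serpina6, Serpina9, Serpinb1a and Serping1 were among the members with no window in the table.

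Serpin transcripts covered a wide range of levels in WT liver. Per kilobase of exon, 13 members had a median over the 19 WT libraries of at least 100 CPM, 11 lay between 1 and 100, and 9 lay under 1. The highest medians per kilobase were those of Serpina3k at 1974 CPM, Serpina1d at 1743, Serpina1b at 1706, Serpina1c at 821 and Serpina1a at 569, all secreted clade A serpins. Ranges of neighbours in this order overlapped, so Serpina1d (1140 to 2372 CPM per kilobase) and Serpina1b (1222 to 1981) had no distinct ranks. Serpinf2 (408), Serpina3m (298), Serpind1 (291), Serpinc1 (278), Serping1 (247), Serpinf1 (225), Serpina6 (224) and Serpina3n (190) followed. Serpina1e had the widest relative range of the abundant members, from 5.75 to 376 CPM per kilobase, around a median of 34.2. The lowest medians were those of Serpini1 (0.0522), Serpina9 (0.0459) and Serpinb10 (0.0261). All members together took between 1.49% and 2.65% of a library's counts.

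**Figure D1:**
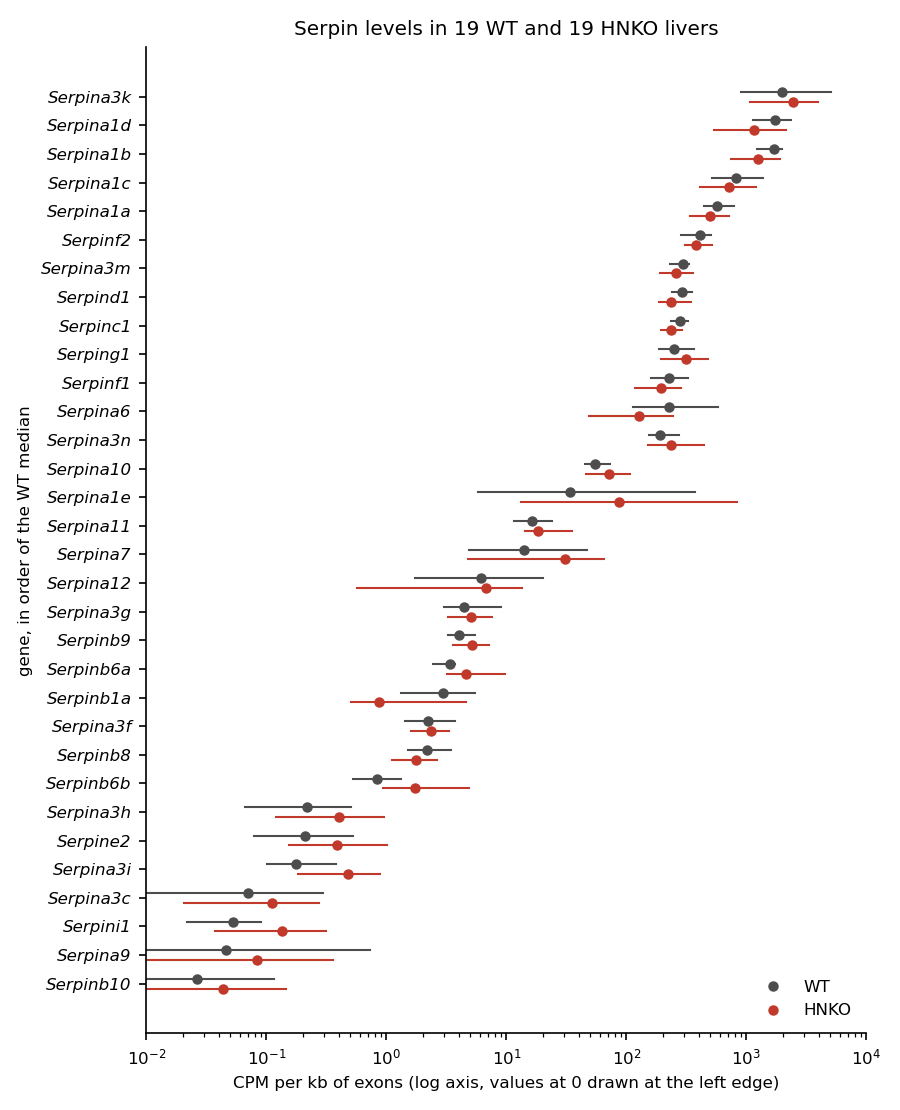
Level of the serpins described here in CPM per kilobase of exon (log axis) in WT and HNKO livers, with a dot at the median and a line from the lowest to the highest of 19 libraries per genotype. Serpina3k, Serpina1d and Serpina1b have the highest WT medians, and the dots of Serpinb1a stand at 2.97 in WT and 0.86 in HNKO.

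Counting over the family, 14 members were higher and 8 lower in HNKO in the mean over the 4 days, and 11 were not called. That is 66.7% of members beside 36.4% of all genes tested, with 19.2% of all genes higher and 17.3% lower. The median log2 fold change of the 33 members in that mean was 0.26, beside -0.01 for all genes. Single days gave fewer calls. At day 3, 1 member was higher and 1 lower (6.06% beside 4.66% of all genes, 2.95% higher and 1.71% lower). At day 6, 8 were higher and 1 lower (27.3% beside 12.8%, with 8.42% of all genes higher and 4.37% lower). Day 12 gave 5 higher (15.2% beside 7.82%, with 4.56% higher and 3.27% lower), and day 21 gave 5 higher (15.2% beside 3.12%, with 2.21% higher and 0.916% lower). edgeR called 0 members lower at days 12 and 21. At an unadjusted p under 0.05, 6, 7, 4 and 7 members were lower at days 3, 6, 12 and 21. DESeq2 called 1, 5, 1 and 0 lower. Shares of all genes by direction are not given here for the unadjusted threshold or for DESeq2. No member was called at all 4 days, 3 were called at 3 days, 5 at 2 days and 2 at 1 day. The share of all genes by number of days is not given here.

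These single-day counts moved with individual livers. The day 3 count was 8 without HNKO library 4, 5 without HNKO library 22, and 1 without HNKO library 2 or 23 or WT library 5, 25 or 26. The day 6 count was 14 without HNKO library 6. At day 12 it was 1 without HNKO library 13, 2 without WT library 15 or 34, and 3 without HNKO library 12 or WT library 16 or 33. At day 21 it was 0 without HNKO library 37, when only 13 genes in all were called, 2 without WT library 19 or 41, and 3 without WT library 20 or 21. The count for the mean over days stayed at 21 or 22 whichever of the 38 libraries was left out.

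Members whose HNKO and WT libraries did not overlap were 1 higher and 1 lower at day 3 (2.31% and 1.8% of all genes), 7 and 3 at day 6 (8.08% and 4.68%), 2 and 3 at day 12 (2.65% and 2.14%), and 6 and 5 at day 21 (7.25% and 6.7%). For the difference between genotypes changing with day, edgeR called 0 members (0.0% of all genes), with 3 members at an unadjusted p under 0.05 beside 966 of 20297 genes (4.76%). Over days within WT, 2 members were called (6.06% beside 5.84%), Serpina3k and Serpina9. Within HNKO, 5 were called (15.2% beside 7.9%), among them Serpina10, Serpina3n, Serping1 and Serpinb9.

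**Figure D2:**
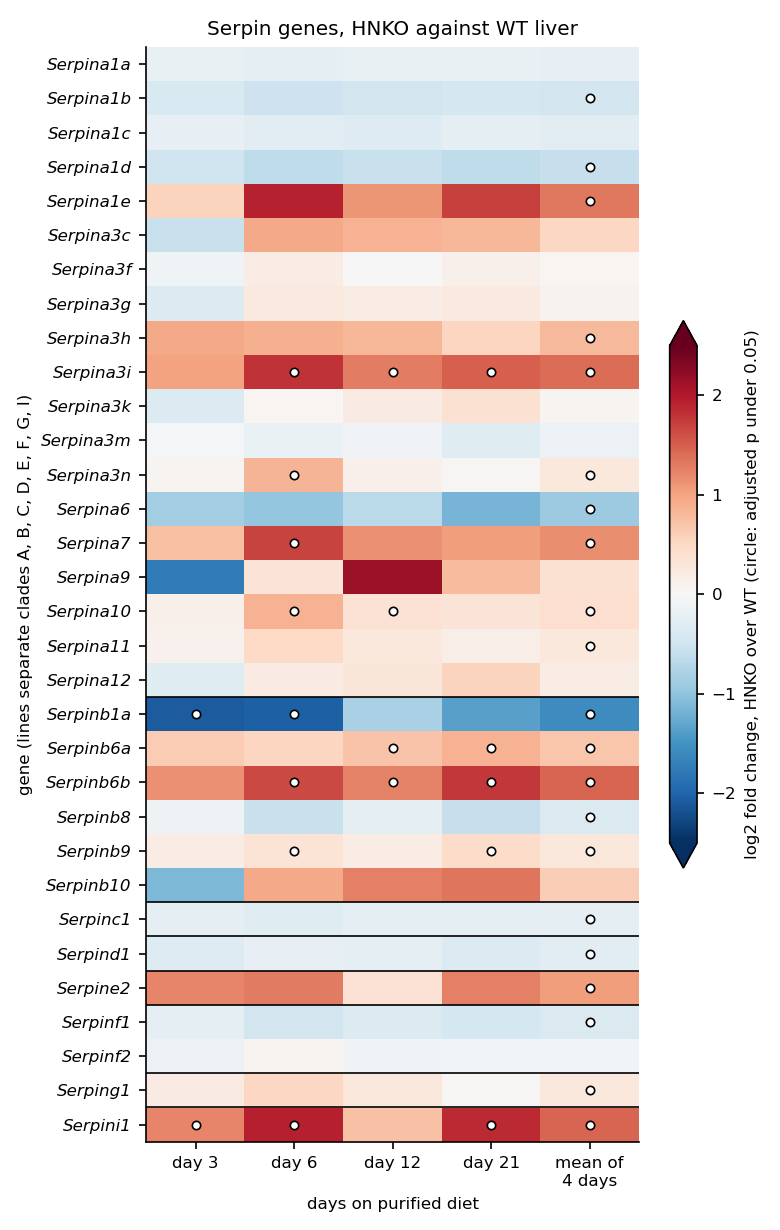
Log2 fold change of HNKO against WT for the serpins described here at days 3, 6, 12 and 21 and in the mean over days, grouped by clade, with called values marked. Among the called values drawn, Serpini1 at day 6 (1.95) stands highest and Serpinb1a at day 3 (-2.08) lowest.

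The abundant Serpina1 genes encode forms of alpha-1-antitrypsin, the main plasma inhibitor of neutrophil elastase. In the mean over days 2 of the 5 were called lower, beside 17.3% of all genes. Serpina1b stood at 4230, 4768, 3772, 4290 and 4120 CPM in WT and 2432, 3158, 4570, 3993 and 2007 in HNKO at day 3. At day 12 it stood at 3552, 4119, 4507, 4417 and 4025 in WT against 2564 to 3360, with a median of 3022, in the 6 HNKO livers. The groups overlapped at day 3, through HNKO libraries 4 and 22, and did not overlap at days 6, 12 and 21. In the mean over days Serpina1b fell by 0.45 on the log2 scale (SE 0.09, edgeR adjusted p = 0.000169), and no single day was called (adjusted p from 0.0526 to 0.237).

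Serpina1d, a close paralog, also fell. At day 6 it stood at 2722, 3164, 2430 and 2383 CPM in WT and 2558, 1620, 748, 1609 and 2080 in HNKO, so that only HNKO library 6 reached into the WT range. It fell by 0.58 in the mean over days (SE 0.12, edgeR adjusted p = 0.000198), with adjusted p from 0.0699 to 0.192 at the single days. Serpina1a (log2 fold change -0.20, SE 0.08, edgeR adjusted p = 0.0629) and Serpina1c (-0.26, SE 0.13, adjusted p = 0.110) were not called.

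Serpina1e was called in the other direction and had a wide spread. At day 6 it stood at 49.6, 212, 11.9 and 34.04 CPM in WT and 131, 129, 191, 141 and 870 in HNKO. At day 3 the HNKO livers ran from 71.5 in library 23 to 1345 in library 22, on both sides of the WT range of 167 to 608. Groups overlapped at every day, and the called mean over days of 1.32 (SE 0.46, edgeR adjusted p = 0.0218) had an adjusted p of 0.0533 without HNKO library 31 and 0.0515 without HNKO library 40. Of stretches of 51 bases in the transcripts, 79.0% in Serpina1c, 57.3% in Serpina1a, 50.4% in Serpina1d, 33.7% in Serpina1e and 28.8% in Serpina1b also occur in other genes, so counts of this group are uncertain.

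The Serpina3 genes, an expanded mouse group related to alpha-1-antichymotrypsin, had 3 of 8 members higher in the mean over days and none lower. Of all genes tested, 19.2% were higher and 17.3% lower in that mean. Serpina3n, an inhibitor secreted in the acute phase response, stood at day 6 at 465, 511, 362 and 365 CPM in WT and 824, 920, 560.5, 803 and 713 in HNKO. Every HNKO liver was above every WT liver, and the log2 fold change was 0.84 (SE 0.17, edgeR adjusted p = 0.000981). At days 3, 12 and 21 the groups overlapped and the log2 fold changes were 0.06, 0.14 and 0.02, none called. The day effect within HNKO was called (edgeR adjusted p = 0.00035), and the change of the genotype difference with day was not (edgeR adjusted p = 0.727).

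Serpina3i was a low-level member with a larger relative difference. At day 6 it stood at 0.390, 0.411, 0.244 and 0.548 CPM in WT and 1.46, 1.57, 1.84, 1.08 and 1.04 in HNKO, with no overlap. Its log2 fold change was 1.80 at day 6 (SE 0.40, edgeR adjusted p = 0.00298), 1.28 at day 12 (SE 0.36, 0.0244) and 1.49 at day 21 (SE 0.40, 0.0350), with groups that overlapped at day 12 through HNKO library 35, at 0.416 CPM. The day 12 call was lost without HNKO library 13 or WT library 15 or 34 (adjusted p up to 0.0729), and the day 21 call without HNKO library 37 or 38 or WT library 19, 20, 21 or 41 (up to 0.239). With all 40 libraries neither was called (0.108 and 0.0772), nor was day 21 without a filter on low counts (0.0533). Day 3 was not called (1.01, SE 0.36, edgeR adjusted p = 0.0961). Of its 51-base stretches 15.4% occur in other genes.

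Serpina3h rose by 0.80 in the mean over days (SE 0.19, edgeR adjusted p = 0.00125) without a call at a single day. It is annotated as a transcribed unprocessed pseudogene and reached 10 counts in 22 of the 38 libraries. Of its 51-base stretches 21.2% occur in other genes, among them Serpina3i. Serpina3k, the most abundant serpin per kilobase, was not called at any day or in the mean (0.08, SE 0.17, adjusted p = 0.767), nor was Serpina3m (-0.15, SE 0.08, adjusted p = 0.160), whose exons overlap those of Serpina3k on the same strand. Serpina3k did change with day within WT (adjusted p = 0.0378), with WT livers at 6586, 10427, 8351, 7905 and 6114 CPM at day 3 and from 1864 to 5315 at day 12, all below the day 3 range. Serpina3c, Serpina3f and Serpina3g were not called in any comparison of the genotypes.

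The hormone carriers moved in opposite directions. Serpina6, corticosteroid-binding globulin, stood at day 21 at 396, 461, 397, 445 and 398 CPM in WT and 129, 195 and 238 in HNKO, with no overlap. It fell by 0.92 in the mean over days (SE 0.20, edgeR adjusted p = 0.000518), with no single day called (adjusted p from 0.113 to 0.248). Serpina7, thyroxine-binding globulin, stood at day 6 at 12.0, 18.7, 33.5 and 34.5 CPM in WT and 43.5, 79.8, 124, 92.8 and 57.7 in HNKO, again without overlap.

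Serpina7 was 3.23-fold higher at day 6 (log2 fold change 1.69, SE 0.46, edgeR adjusted p = 0.0137) and rose by 1.16 in the mean over days (SE 0.22, adjusted p = 8.9e-05). The day 6 call was lost without WT library 8 or 10 or HNKO library 29 (adjusted p up to 0.0645). At day 3 HNKO libraries 2 and 23, at 75.3 and 106 CPM, were above all WT livers and HNKO library 4, at 11.8, was below them all.

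Among regulators of clotting, Serpina10 rose and Serpinc1 and Serpind1 fell. Serpina10, the protein Z-dependent inhibitor of activated factor X, stood at day 6 at 183, 198, 186 and 199 CPM in WT and 313, 372, 355, 345 and 372 in HNKO, without overlap. Its log2 fold change was 0.88 at day 6 (SE 0.12, edgeR adjusted p = 2.4e-05) and 0.35 at day 12 (SE 0.11, adjusted p = 0.0402), where the groups overlapped, and it changed with day within HNKO (adjusted p = 0.000249). The day 12 call was lost without any of HNKO libraries 11, 12 and 13 or WT libraries 14, 15, 16 and 34 (adjusted p up to 0.121), and also with no filter on low counts, all 40 libraries or only the groups of the day (up to 0.09495). Days 3 (0.13, adjusted p = 0.532) and 21 (0.32, adjusted p = 0.17005) were not called.

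Serpinc1, antithrombin, ran at day 12 from 2194 to 2721 CPM in WT and from 1878 to 2159 in HNKO, without overlap. It fell by 0.25 in the mean over days (SE 0.06, edgeR adjusted p = 0.000747). Serpind1, heparin cofactor II, fell by 0.28 in that mean (SE 0.07, adjusted p = 0.00101), with groups that overlapped at every day. Of Serpinc1's 51-base stretches 33.5% are shared, and its exons overlap those of Zbtb37 on the opposite strand.

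In clade B, whose members act mainly inside cells, Serpinb1a was the member with the largest fall. Serpinb1a, an inhibitor of neutrophil serine proteases, stood at day 3 at 7.65, 8.82, 6.90, 6.305 and 9.85 CPM in WT and 1.16, 1.16, 2.703, 2.31 and 1.95 in HNKO. At day 6 it stood at 5.25, 7.24, 12.5 and 8.22 in WT and 2.64, 1.64, 1.45, 2.28 and 2.22 in HNKO. The groups did not overlap at days 3, 6 and 21, and at day 12 a single HNKO liver, library 35 at 10.5 CPM, was above every WT liver while the other HNKO livers were below them all at 1.30 to 2.33.

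Serpinb1a was 4.24-fold lower at day 3 (log2 fold change -2.08, SE 0.43, edgeR adjusted p = 0.00529) and 4.09-fold lower at day 6 (-2.03, SE 0.44, adjusted p = 0.00247). It was not called at day 12 (-0.81, SE 0.39, adjusted p = 0.191) or at day 21 (-1.36, SE 0.51, adjusted p = 0.131). Without library 35 the day 12 value was -1.69 (SE 0.29, adjusted p = 0.00107). In the mean over days it fell by 1.57 (SE 0.22, adjusted p = 1.6e-06).

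Serpinb6a and Serpinb6b, intracellular inhibitors encoded on chromosome 13, were higher in HNKO. Serpinb6b stood at day 6 at 1.61, 2.001, 1.95 and 1.69 CPM in WT and 3.77, 5.90, 10.4, 5.35 and 2.95 in HNKO, and at day 21 at 1.38, 1.87, 1.66, 1.37 and 2.24 in WT and 10.9, 2.52 and 4.09 in HNKO. HNKO and WT livers did not overlap at days 6, 12 and 21. The log2 fold changes were 1.66 (SE 0.42, edgeR adjusted p = 0.00806), 1.23 (SE 0.37, 0.0378) and 1.78 (SE 0.42, 0.0179), and day 3 was not called (1.13, SE 0.38, 0.0734).

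Serpinb6a stood at day 21 at 14.4, 18.97, 17.1, 17.6 and 15.1 CPM in WT and 42.2, 24.9 and 24.1 in HNKO, and it did not overlap at days 6, 12 and 21 either. It was called at day 12 (0.72, SE 0.20, edgeR adjusted p = 0.0236) and day 21 (0.87, SE 0.23, adjusted p = 0.0331), and not at day 3 (0.64, adjusted p = 0.0612) or day 6 (0.53, adjusted p = 0.107). Without HNKO library 37 the day 21 values were 0.58 for Serpinb6a (adjusted p = 0.543) and 0.98 for Serpinb6b (adjusted p = 0.580). Of the other calls, that of Serpinb6b at day 6 was lost without HNKO library 29 (0.0533), that of Serpinb6b at day 12 without HNKO library 12 or 13 or WT library 15, 16, 33 or 34 (up to 0.0933), that of Serpinb6a at day 12 without HNKO library 13 or 35 or WT library 33 (up to 0.0515), and that of Serpinb6a at day 21 also without WT library 19, 21 or 41 (up to 0.0796). With all 40 libraries neither was called at day 12 (0.0718 for Serpinb6a and 0.0512 for Serpinb6b). Serpinb6a shares 24.97% of its 51-base stretches with other genes and its exons overlap those of Nqo2 and Ripk1 on the opposite strand.

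Serpinb9, an inhibitor of granzyme B, rose by 0.29 in the mean over days (SE 0.06, edgeR adjusted p = 0.000122). At day 21 it stood at 14.2, 13.2, 16.2, 13.3 and 12.5 CPM in WT and 20.4, 17.96 and 18.7 in HNKO, without overlap (0.45, SE 0.12, adjusted p = 0.038). The call at day 6 (0.34, SE 0.12, adjusted p = 0.0497), where the groups overlapped, was lost without HNKO library 7, 29 or 31 or any of the 4 WT libraries (up to 0.173), and that at day 21 without HNKO library 37 or 40 or WT library 19, 20, 39 or 41 (up to 0.379). Both were lost with no filter on low counts (0.0817 and 0.0645) and with all 40 libraries (0.246 and 0.269), that at day 6 with only the groups of the day (0.159), and that at day 21 with the label series as a covariate (0.36, adjusted p = 0.0746). Serpinb8 fell by 0.37 in the mean over days (SE 0.10, adjusted p = 0.00264), and Serpinb10, whose exons overlap those of Serpinb2, was not called.

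**Figure D3:**
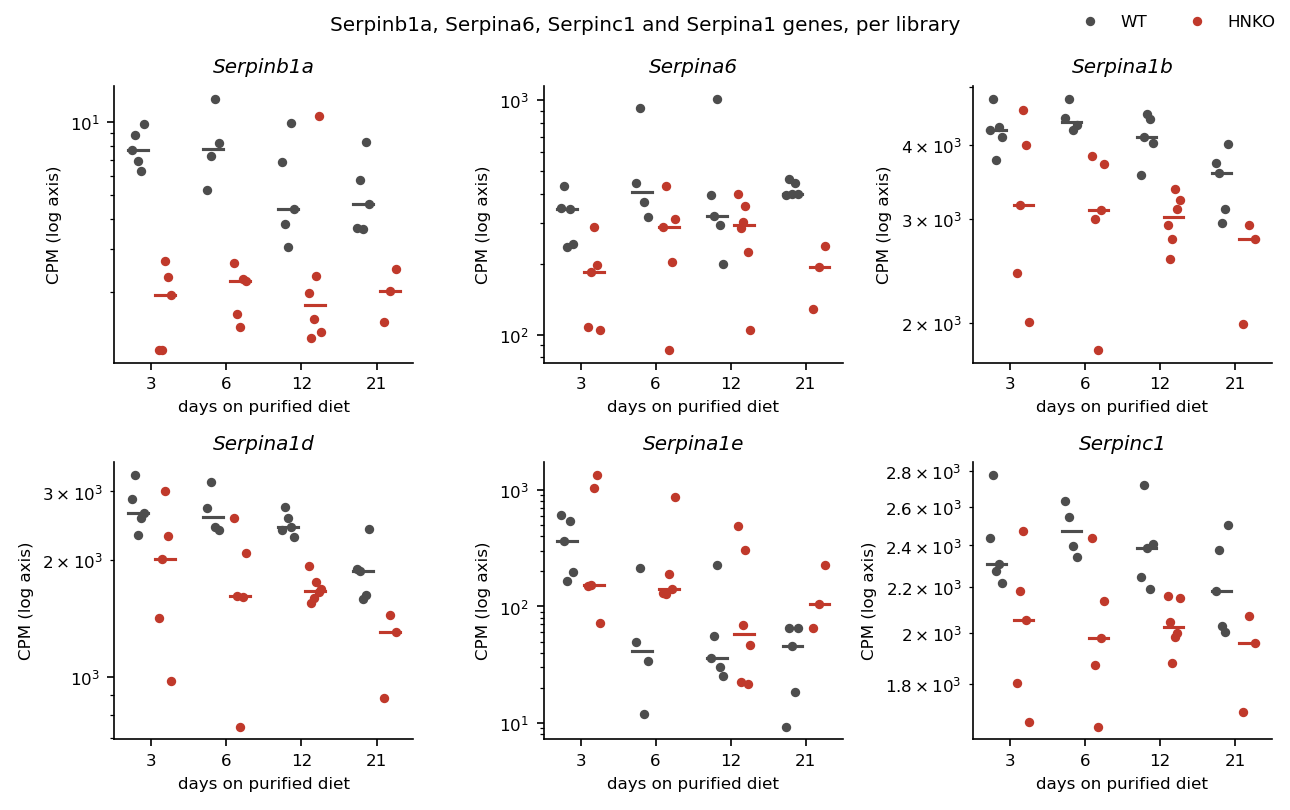
CPM (log axis) of 6 serpins that were lower in HNKO or differed within it, by day, with a point for each library and a bar at each group's median. Serpinb1a HNKO livers lie below the WT livers except library 35 at day 12, at 10.5 CPM, and Serpina1e runs from 11.9 to 212 in WT at day 6.

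Serpine2, protease nexin 1, which inhibits thrombin and plasminogen activators, stood at day 3 at 2.11, 3.002, 1.73, 2.25 and 1.32 CPM in WT and 7.42, 3.18, 3.11, 2.13 and 8.38 in HNKO. HNKO library 22 was the one within the WT range. Serpine2 rose by 1.04 in the mean over days (SE 0.23, edgeR adjusted p = 0.000486), with no call at a single day. Serpinf2, the plasma inhibitor of plasmin, was not called at any day or in the mean (-0.06, SE 0.07, adjusted p = 0.505). Plat, the tissue plasminogen activator, was called higher at all 4 days, with log2 fold changes of 2.29, 2.59, 1.77 and 2.78, while Plau was called at none.

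Serping1, the C1 inhibitor of the complement and contact systems, rose by 0.26 in the mean over days (SE 0.09, edgeR adjusted p = 0.0292), with no call at a single day. Serpinf1, pigment epithelium-derived factor, which inhibits no protease, fell by 0.37 (SE 0.09, adjusted p = 0.00213), and its groups did not overlap at day 21, at 440, 477, 409, 381 and 595 CPM in WT and 280, 370 and 374 in HNKO.

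Serpini1, neuroserpin, which inhibits tissue plasminogen activator and is best known from neurons, was present at low levels and rose. At day 21 it stood at 0.158, 0.545, 0.380, 0.530 and 0.275 CPM in WT and 1.71, 1.15 and 1.29 in HNKO, without overlap. Its log2 fold change was 1.23 at day 3 (SE 0.33, edgeR adjusted p = 0.0295), 1.95 at day 6 (SE 0.40, 0.00147) and 1.87 at day 21 (SE 0.37, 0.00526). At day 6 the groups overlapped, with HNKO library 6 at 0.273 CPM inside the WT range of 0.217 to 0.308. At day 12 it was not called (0.74, SE 0.33, edgeR adjusted p = 0.163) and the groups overlapped as well. The day 3 call was lost without HNKO library 2 or 23 or WT library 5, 25 or 26 (adjusted p up to 0.136), and the day 21 call without HNKO library 37 (0.1195). With all 40 libraries neither was called (0.164 and 0.0713), nor was day 3 with only the groups of the day (0.0612).

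**Figure D4:**
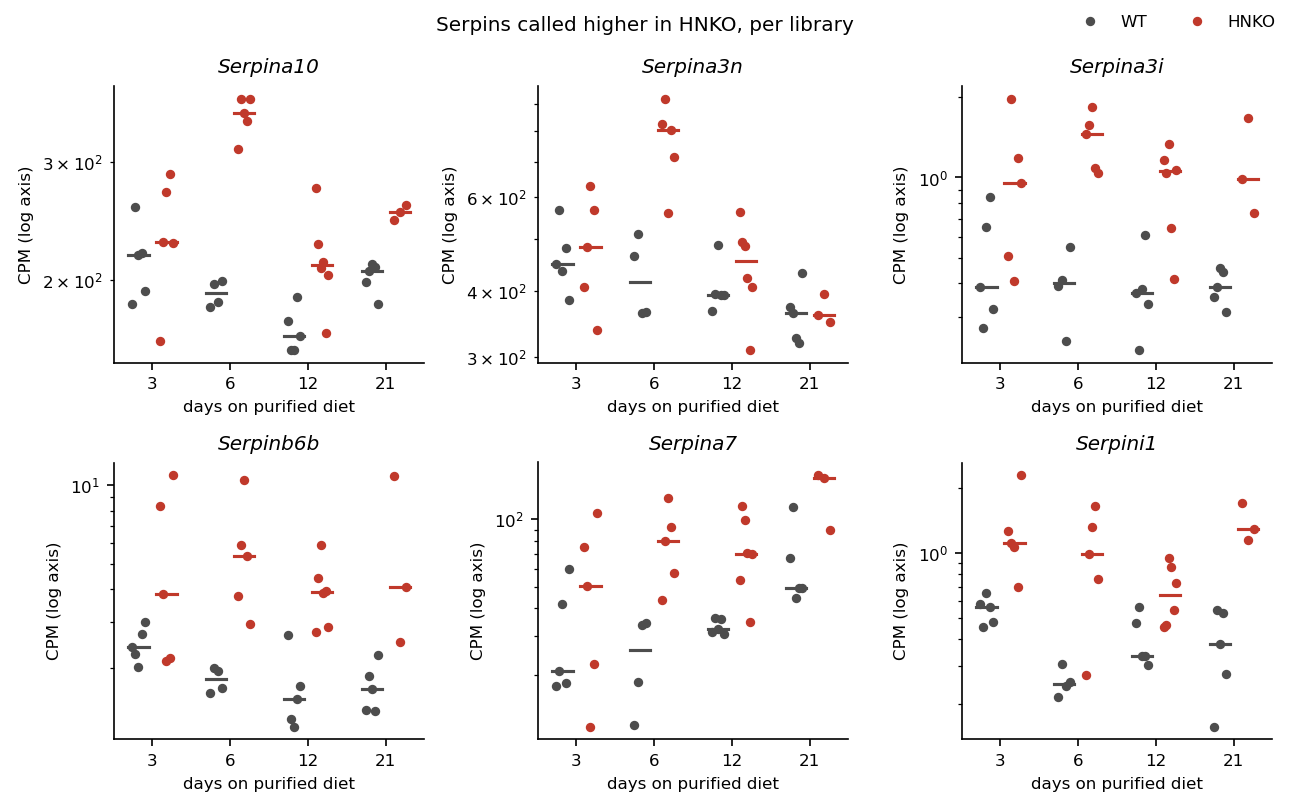
CPM (log axis) of 6 serpins that were higher in HNKO, by day, with a point for each library and a bar at each group's median. Serpina7 HNKO livers at day 6 run from 43.5 to 124 above a WT range of 12.0 to 34.5, and Serpina10 and Serpina3n HNKO livers also lie above all WT livers at day 6.

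Of the remaining clade A genes, Serpina11 was called only in the mean over days (0.26, SE 0.10, edgeR adjusted p = 0.0407), a call lost without any of HNKO libraries 4, 6, 11, 22, 31, 32 and 38 or WT libraries 1, 8, 10, 14, 16, 19, 25, 27, 39 and 41 (adjusted p up to 0.0807), and also once the label series entered the fit (0.23, adjusted p = 0.0661). Serpina12, vaspin, and Serpina9 were not called between genotypes. Serpina9 changed with day within WT (adjusted p = 0.0278) and had 0 counts in 5 libraries.

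Livers of one HNKO group differed from each other for several members together. At day 3, HNKO libraries 2 and 23 were the highest for Serpinb6a (34.05 and 52.2 CPM), Serpinb6b (8.37 and 10.95), Serpina7 and Serpine2 (7.42 and 8.38) and the lowest for Serpina1b and Serpina6 (107 and 104). HNKO libraries 4 and 22 lay near the WT livers for Serpinb6b, at 2.13 and 2.19. Spp1, a cholangiocyte and oval cell marker, stood at 380, 276, 110, 101 and 359 CPM in HNKO libraries 2, 3, 4, 22 and 23 and between 37.3 and 39.4 in WT, and its part in these values was not tested.

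At day 6, HNKO library 29 had the lowest Serpina1b (1801 CPM), Serpina1d and Serpina6 (85.9), the highest Serpinb6b (10.4), and the highest Spp1 (728) and Col1a1 (189). At day 21, HNKO library 37 had the highest Serpinb6a and Serpinb6b and a Spp1 level of 465, beside 123 and 213 in libraries 38 and 40. At day 12 HNKO library 12 had the lowest Serpina1b (2564 CPM) and Serpina1d (1550) and the highest Serpina7 and Spp1 (115 and 206). Other extremes of that day were in other HNKO livers. The highest Serpinb6a was in library 35 (32.8), the highest Serpinb6b and Col1a1 in library 13 (5.94 and 62.8) and the lowest Serpina6 in library 36 (104). At day 6 the highest Serpine2 was in library 7 (5.46), beside 4.54 in library 29.

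Marker lists for the cells of liver moved with genotype beside these results. Of 7 cholangiocyte and oval cell markers, 6, 6, 5 and 4 were higher at days 3, 6, 12 and 21, with a summed level at day 6 of 34.7 to 46.7 CPM in WT and 166 to 756 in HNKO. Of 8 stellate cell and fibroblast markers, 3, 4, 3 and 3 were higher, and Reln was lower at day 12. Of 4 neutrophil markers tested, 0, 4, 1 and 1 were higher, with a summed level at day 6 of 0.843 to 1.69 CPM in WT and 7.18 to 28.3 in HNKO, and Ly6g was too low to test. Of 7 hepatocyte markers, Alb and Ttr were lower at day 6 and 4 in the mean over days, with summed levels of 117180 to 132970 CPM in WT and 55938 to 101930 in HNKO at day 6. Of 6 macrophage markers 2 were higher at day 6, of 6 endothelial markers Kdr was lower at days 6 and 12, of 6 lymphocyte markers Ms4a1 was lower at day 3, and of 3 mesothelial markers edgeR called 0. Of all genes tested, 2.95%, 8.42%, 4.56% and 2.21% were higher at days 3, 6, 12 and 21. Lower were 1.71%, 4.37%, 3.27% and 0.916% at these days, and 17.3% in the mean over days. The part of these cell types in the serpin values was not tested.

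Acute phase proteins had most calls at day 6, the day of the largest log2 fold changes of Serpina3n and Serpina10. For the genotype difference changing with day, edgeR called 0 of 20297 genes, and day 21 has 3 HNKO livers. Of 18 genes, 3, 14, 8 and 1 were higher at days 3, 6, 12 and 21, beside 2.95%, 8.42%, 4.56% and 2.21% of all genes. Saa2 stood at day 6 at 9.77 to 19.6 CPM in WT and 571 to 1577 in HNKO, and at day 21 at 7.91 to 15.6 in WT and 16.3 to 40.9 in HNKO.

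Of 28 proteases, receptors and cofactors tied to serpins that were tested, 3, 5, 5 and 3 were higher and 0, 1, 1 and 1 lower at days 3, 6, 12 and 21. Of all genes, 2.95%, 8.42%, 4.56% and 2.21% were higher and 1.71%, 4.37%, 3.27% and 0.916% lower. Prtn3, a neutrophil serine protease and target of Serpinb1a, was higher at all 4 days (log2 fold changes 3.44, 6.14, 5.26 and 3.54), as were Plat and St14, while Elane and Ctsg were too low to test. In the mean over days 6 of the 28 were higher and 10 lower, beside 19.2% and 17.3% of all genes. The 10 included the clotting factor genes F2, F7, F9 and F10 together with Plg and Proc.

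Library numbers fall into 2 label series, and all HNKO libraries used at day 21 belong to the second. The 21 calls of members at single days gave 37 differences within a series, and 37 had the direction of the pooled value. The calls were chosen on pooled values of these same libraries, and the day 21 calls have a difference in the second series only. The count of directions is therefore no separate check of the calls. With the series as a covariate, 2 calls were lost, those of Serpinb9 at day 21 and Serpina11 in the mean over days.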

How the data were processed

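Ribosomal RNA-depleted total RNA of whole liver was sequenced by the authors as 51-base paired ends. According to the submitters' processing notes, STAR 2.7.2b, featureCounts 1.6.4 and edgeR 3.26.0 were used with the GRCm38 build. Whether counting used strand is not given in the sources used here. The deposited table holds raw counts per gene, not normalized, for 40 libraries, and 55394 of 55487 gene identifiers were matched to a symbol. The 2 libraries described as failing quality control were left out, which left 38. No 2 libraries of a group agreed within sampling noise (74 pairs).

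Genes were filtered with filterByExpr (minimum count 10, minimum total 15, proportion 0.7), which removed 35190 genes and kept 99.9372% of counts. edgeR 4.0.16 in R 4.3.3 fitted 1 mean per genotype and day with TMM normalization and a quasi-likelihood test, with Benjamini-Hochberg adjustment over all 20297 genes. The fitting scripts were tested on simulated counts with large planted changes in well-counted genes. That does not bear on the smaller changes or the low-count members reported here. DESeq2 1.42.0, other filters, all 40 libraries, the 2 groups of a day alone, other dispersion settings, the label series as a covariate and each library left out were alternatives. Named are members called at 2 or more days or in the mean over days, those with the smallest p at each day, and a written list of well-known members; others named here are given only to account for every member. The counts cover all members, and the values of 1 member are not reported here. The members, lists and tests were chosen with earlier results of these data known. Library totals limit only the lowest members, such as Serpinb10, which was at 0 in 3 libraries.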

Additional observations from a re-analysis of the deposited data

Results flagged for a closer look

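In groups of 4 to 6 livers, 1 library stood apart from the others by Dixon's criterion in 11 of 231 groups over the 33 members, where chance flags about 1 in 20. In HNKO these were Serpina1e in library 31 at day 6 (870 CPM, beside 129 to 191 in the others), Serpina12 in library 7 at day 6 (2.12, beside 23.9 to 38.4), Serpina3f in library 31 at day 6 (4.64, beside 7.17 to 7.59), Serpina3m in library 36 at day 12 (610, beside 390 to 453), Serpinb1a in library 35 at day 12 (10.5, beside 1.30 to 2.33) and Serpinb9 in library 23 at day 3 (24.9, beside 17.7 to 18.8). In WT they were Serpina11 and Serpinb8 in library 28 at day 6 (35.3, beside 25.9 to 27.1, and 14.4, beside 10.3 to 10.8), Serpina1a in library 5 at day 3 (1347, beside 1000 to 1072), Serpina3n in library 16 at day 12 (487, beside 366 to 393) and Serpinb9 in library 8 at day 6 (12.7, beside 15.01 to 15.04).

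The 2 HNKO day 21 libraries set aside for quality entered no comparison. As CPM on unscaled library totals, both were above the highest WT day 21 library for 5 members. Serpinb6b stood at 7.66 and 8.71 against 1.96, Serpina10 at 250.4 and 258 against 219, Serpina1e at 96.5 and 120.2 against 62.3, Serpina3n at 421 and 489.5 against 378, and Serping1 at 572 and 667 against 558. Both were below the lowest WT day 21 library for Serpina6 (320 and 230.3 against 349), Serpinb1a (2.60 and 1.07 against 3.65) and Serpinb8 (7.24 and 5.96 against 7.44). For 4 members called higher at day 21 the 2 libraries differed. Library 17 was below all WT libraries for Serpinb6a (12.6) and Serpinb9 (8.38) and at 0 counts for Serpina3i and Serpini1, while library 18 stood at 49.8, 21.3, 1.63 and 0.502, above all WT libraries except for Serpini1.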

How the results depend on the processing

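The 43 calls of members kept their direction in all 356 values under the alternatives other than leaving out a library, of which 18 were no longer past the threshold, and in all 1032 values with a library left out, of which 72 were not. The day 3 count of 2 called members was 4 with DESeq2 and 1 with at least 10 counts in every library, with all 40 libraries or with only the 2 groups of the day. The day 6 count of 9 was 14 with DESeq2, the day 12 count of 5 was 1 with all 40 libraries, the day 21 count of 5 was 3 without a filter on low counts and with at least 10 counts in every library, and the count of 5 with a day effect in HNKO was 3 without a filter. With a library left out the counts ran from 1 to 8 at day 3, 6 to 14 at day 6, 1 to 6 at day 12 and 0 to 4 at day 21. The causes were not tested. Over all genes, DESeq2 called 1428, 2917, 2053 and 994 at days 3, 6, 12 and 21, beside 945, 2596, 1588 and 634 in edgeR, and all 40 libraries gave 331, 1321, 624 and 1350. No paired analysis was possible because the genotypes share no library numbers. Members under 1 CPM per kilobase rest on few counts. Day 21 has 3 HNKO livers, all of the second label series.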
